A study of Mus musculus with 3 samples.

Results

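The 10 genes described here were grouped as smooth muscle contractile genes, which are read as myofibroblast markers in fibroblasts. They are *Acta2*, *Actg2*, *Tagln*, *Cnn1*, *Cnn2*, *Tpm1*, *Tpm2*, *Tnnt2*, *Myh11* and *Lmod1*, and they were found by symbol as 10 of the 15554 rows of 1 expression table, each in a row of its own. The name does not hold for *Tnnt2*, which encodes a troponin of striated muscle, since thin filaments of smooth muscle carry no troponin. The cells were NIH3T3, an established line of mouse embryonic fibroblasts, kept in serum-free IMDM. They received no stimulus (CTRL), GDF15 at 100 ng/mL or TGF-β at 4 ng/mL for 24 h, after a serum-free incubation of the same length that all groups shared. RNA was pooled within each treatment and 1 library was sequenced per treatment, so differences carry no replicate error and were given no p-value. Values are FPKM (fragment counts scaled to the length of the gene's exons and to the size of the library), which can therefore be set side by side between genes. NIH3T3 is 1 immortalized line, so the values describe this line and not fibroblasts of a tissue. The study asked whether GDF15, a distant member of the TGF-β superfamily, acts on fibroblasts as TGF-β does.

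Smooth muscle cells contract when myosin pulls on thin filaments made of muscle actin isoforms, with tropomyosin, calponin and leiomodin bound along them. Fibroblasts normally run their cytoskeleton on the cytoplasmic actins and non-muscle myosin, and a fibroblast that becomes a myofibroblast adds α-smooth muscle actin, the product of *Acta2*, to its stress fibres. Many of these genes are known targets of serum response factor and its myocardin-related cofactors, which bind the CArG box, and TGF-β is a classical inducer of this program.

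The table is alike in scale between libraries. FPKM summed to between 306603 and 331179, and between 3633 and 3745 genes were listed at 0. Low FPKM values of many genes cluster at whole fragments, though some values lie far below 1 fragment, and from these steps the depth was estimated at 18700000 (CTRL), 21800000 (GDF15) and 17800000 (TGF-β) fragments. All 10 listed fibroblast markers reached a mean FPKM of 1, the most abundant by mean being *Fn1* (fibronectin; FPKM 3738 in CTRL, 5815 under GDF15 and 5385 under TGF-β) and *Col3a1* (a fibrillar collagen; 3738, 4484 and 3092). *S100a4* (a calcium-binding protein), chosen after its values were seen, was highest of the list in CTRL and lower with both stimuli, at 3817, 2529 and 2942. Among 12 markers of epithelial, endothelial and blood cells the summed FPKM was between 2.18 and 2.74, with *Cd68* (1.66, 1.14 and 1.67) and *Cdh1* (0.685, 0.555 and 0.186) at the top and *Epcam* listed at 0 in all 3 libraries. In a bulk library, more cells that express a gene and more RNA per cell cannot be told apart, and this holds for each value below.

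The contractile genes did not move as a block. A change is the difference of log2(FPKM + 1) between libraries, and a gene was called when it exceeded 1 in size, the 2-fold criterion of the study. GDF15 raised 2 of the 10 genes past this criterion, *Acta2* and *Tagln*, where 0.212% of all 15554 genes were called higher. The count was 4, with *Actg2* and *Tnnt2* added, when the pseudocount of 1 was lowered to 0.1 or left out. In these settings 0.894% of all genes and 2.27% of the 11081 genes above 0 in every library were called higher. TGF-β raised 3 of the 10, *Acta2*, *Tagln* and *Tnnt2*, where 0.579% of all genes were called higher. None of the 10 was called lower by either stimulus, where 0.0772% of all genes were called lower by GDF15 and 0.334% by TGF-β. The CTRL library serves in both comparisons, and a direction that they have in common is therefore not independent evidence. The median change of the 10 genes was 0.10 by GDF15 and 0.09 by TGF-β, against 0.00 over all genes in both comparisons. These medians depend on the pseudocount, and were 0.20 and 0.37 with a pseudocount of 0.1 and 0.25 and 0.69 without one. The direction was upward for 7 of the 10 genes by GDF15 and for 8 by TGF-β, against 35.8% and 32.4% of all genes, many of which are listed at 0, and 44.4% and 37.2% of the genes whose mean FPKM reached 1, but most of these differences were small.

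**Figure D1:**
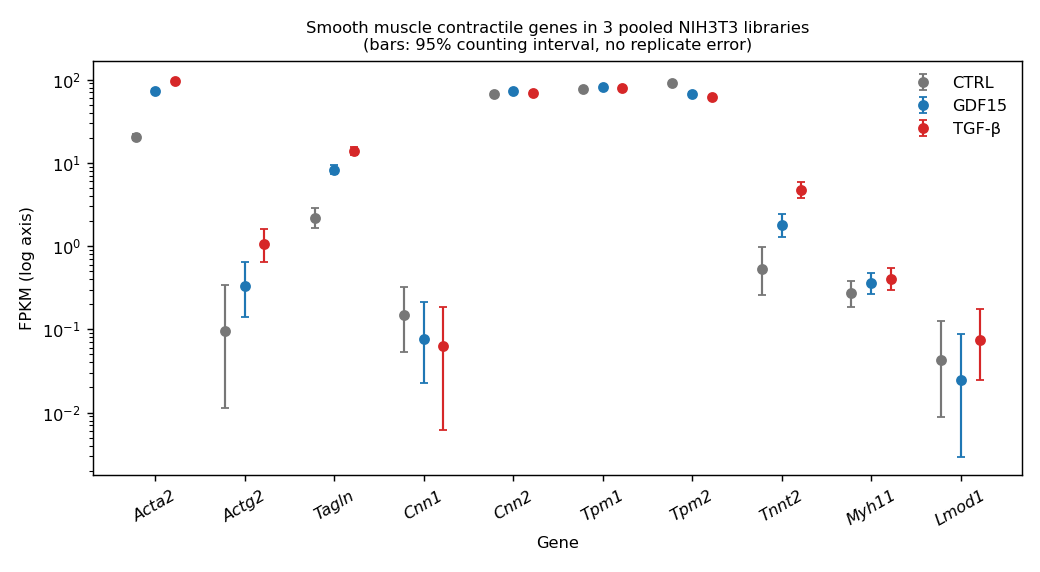
FPKM (log axis) of the 10 contractile genes in the CTRL, GDF15 and TGF-β libraries, 1 pooled library each; bars are 95% counting intervals and hold no replicate error. *Acta2*, *Tagln*, *Tnnt2* and *Actg2* step upward from CTRL to GDF15 to TGF-β, *Cnn2* and *Tpm1* are level, *Tpm2* is highest in CTRL at 90.2, and the intervals of *Cnn1*, *Lmod1* and *Myh11* overlap between all libraries.

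*Acta2* encodes α-smooth muscle actin and lies on chromosome 19 of GRCm38 (34241090 to 34255590, minus strand). Its FPKM was 20.4 in CTRL, 73.6 under GDF15 and 96.1 under TGF-β. These levels stand for about 700 fragments in CTRL (95% exact Poisson interval 649 to 754), 2942 in GDF15 (2837 to 3050) and 3143 in TGF-β (3034 to 3255). Fragment numbers were estimated from the depth and the longest coding transcript, and their intervals cover counting error only. The counting intervals of CTRL and both stimulated libraries lay far apart. In FPKM, *Acta2* was 3.60-fold higher in GDF15 than in CTRL (counting interval of the ratio 3.32 to 3.92) and 4.71-fold higher in TGF-β (4.34 to 5.12). On the log2(FPKM + 1) scale the changes were 1.80 and 2.18, and 7 genes of the table rose more by GDF15 and 17 more by TGF-β. In the absence of replicates, a local spread was used as a yardstick, namely the scaled median absolute deviation of changes among genes of similar mean FPKM. Less the median change of those genes, the changes of *Acta2* were 8.67 and 11.6 local spreads.

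*Actg2* encodes γ-smooth muscle actin, the enteric isoform, and lies on chromosome 6 (83512905 to 83536265, minus strand). Its FPKM was 0.0961 in CTRL, 0.330 under GDF15 and 1.06 under TGF-β, an estimated 2.03, 8.14 and 21.4 fragments. The order of the 3 libraries is that of *Acta2* at a far lower level. The ratio of TGF-β to CTRL was 11.0, but with so few fragments in CTRL its counting interval ran from 2.69 to 96.8, and the ratio of GDF15 to CTRL (3.43) had an interval from 0.684 to 33.1 that includes no difference. On the log2(FPKM + 1) scale, which compresses low values, the changes were 0.28 by GDF15 and 0.91 by TGF-β, so that *Actg2* lay just under the criterion with TGF-β. It passed in 4 of the 6 alternative settings that gave it a value, among them those with a lower or no pseudocount, which can only enlarge a change.

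The actin isoforms are nearly the same protein from separate genes, so it matters whether a 50-base read can tell them apart. The start of the coding sequence is shown for 4 of them because a read from there differs between the isoforms at several bases. Sequences are from the longest coding transcripts of GENCODE M21 (GRCm38), aligned to *Acta2* with the codons that *Actg2* and *Actg1* lack as a single gap where the fewest bases differ, with bases that differ from *Acta2* in capitals.
Acta2: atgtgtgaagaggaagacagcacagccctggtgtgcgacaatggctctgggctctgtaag
Acta1: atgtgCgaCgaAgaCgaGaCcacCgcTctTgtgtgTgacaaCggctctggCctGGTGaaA
Actg2: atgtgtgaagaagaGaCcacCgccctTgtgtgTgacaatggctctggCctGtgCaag
Actg1: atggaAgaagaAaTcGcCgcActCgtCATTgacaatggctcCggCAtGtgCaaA
In this stretch *Acta1*, the skeletal muscle actin, differed from *Acta2* at 17 of 60 bases, *Actg2* at 8 of 57 and *Actg1*, the cytoplasmic γ-actin, at 17 of 54. Over the coding sequence, aligned without gaps from its end, *Actg2* was 83.8% identical to *Acta2*, *Acta1* 85.4% and *Actg1* 81.7%.

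Of the 1986 positions in the *Acta2* transcript at which a 50-base read could start, 7 gave a read that is also found exactly in another protein coding gene, *Actg1*. They lie in a single stretch of 56 bases, coding bases 910 to 965 of *Acta2*, which is shown because reads inside it belong equally to both genes.
Acta2 and Actg1: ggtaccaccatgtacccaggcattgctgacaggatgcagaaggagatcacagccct
With up to 2 mismatches allowed against the other actins, 36 positions of *Acta2* (1.81%) and 68 of the 1284 positions of *Actg2* (5.30%) could be matched elsewhere. No exact 50-base word of *Actg2* was found in another coding gene. How the authors' counting divided such reads is not given in the sources used here.

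None of the other actin genes was called. *Actb*, the cytoplasmic β-actin, had an FPKM of 690.3 in CTRL, 681 under GDF15 and 703 under TGF-β, and *Actg1* of 665, 604 and 518. Of the 50-base words of *Actb*, 12.5% are also found in other coding genes, so its value is the less certain. *Acta1* was at 8.75, 8.12 and 7.68. *Actc1*, the cardiac isoform, was low at 0.315, 1.0 and 1.2, with changes of 0.61 and 0.74 and the same order of libraries as *Acta2*. None of its exact 50-base words was found in another coding gene. With up to 2 mismatches, 89 of its 1424 positions (6.25%) could be matched in other actins, so this low value is uncertain. The summed FPKM of the 6 actin genes stayed between 1327 and 1385 in the 3 libraries. Within this sum the share of *Acta2* was 1.47% in CTRL, 5.38% under GDF15 and 7.24% under TGF-β, and the share of *Actg1* was 48.0%, 44.2% and 39.1%. *Actb* held 49.8%, 49.8% and 52.9% of the actin sum.

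**Figure D2:**
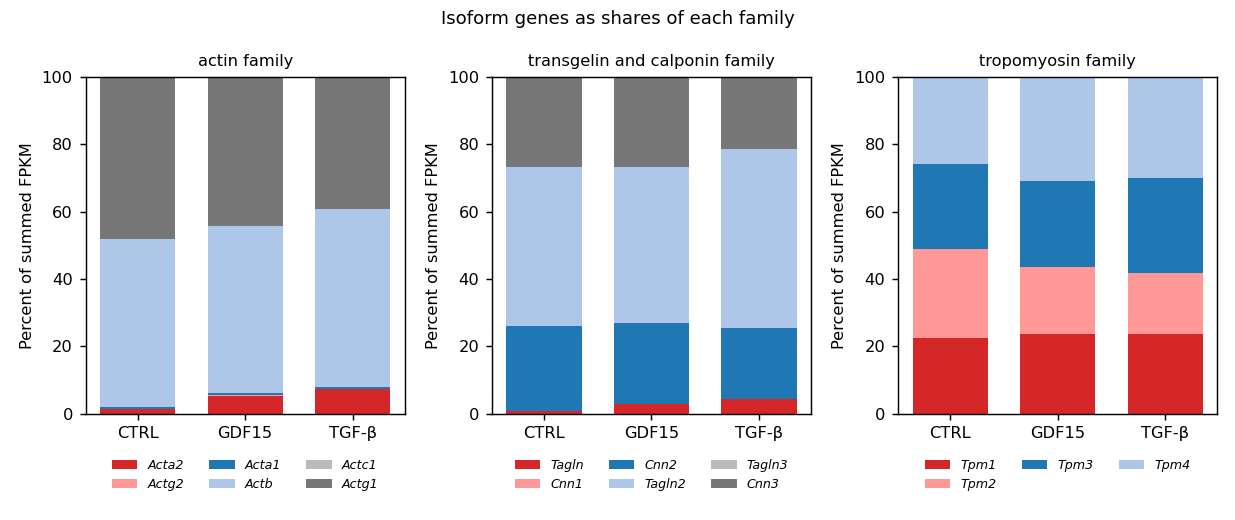
Percent of the summed FPKM of the actin, transgelin and calponin, and tropomyosin families held by each gene in the 3 libraries; each bar adds up to the whole family. The *Acta2* segment grows from 1.47% to 5.38% and 7.24%, the *Tagln* segment from 0.823% to 2.75% and 4.24%, and the *Tpm2* segment narrows from 26.3% to 19.9% and 18.3%.

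*Tagln* encodes transgelin (SM22α), an actin-binding protein of smooth muscle, and lies on chromosome 9 (45929619 to 45936058, minus strand). Its FPKM was 2.20 in CTRL, 8.27 under GDF15 and 13.8 under TGF-β, an estimated 57.4 (43.2 to 73.9), 252 (222 to 285) and 343 (308 to 381) fragments. The libraries are in the same order as for *Acta2*, and their counting intervals do not overlap. The changes were 1.53 by GDF15 and 2.21 by TGF-β, or 7.89 and 11.2 local spreads, with 12 genes of the table rising more by GDF15 and 16 more by TGF-β. Per length, *Tagln* was at a lower level than *Acta2* in each library. Of its 1988 exon bases, 1241 are shared with *Gm48529*, an antisense gene of GENCODE, and 108 with *Pcsk7*, a proprotein convertase gene on the opposite strand. The libraries were stranded, but whether strand was used in counting is not given in the sources used here, and without it reads of these genes cannot be told apart. *Pcsk7* itself had an FPKM of 5.81, 6.09 and 6.42.

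The relatives of *Tagln* stayed closer to their CTRL level. *Tagln2*, the widely expressed transgelin, had an FPKM of 126 in CTRL, 139.7 under GDF15 and 173 under TGF-β, with changes of 0.15 and 0.46. *Tagln3* was at 0.278 in CTRL and listed at 0 in both other libraries. The share of *Tagln* in the summed FPKM of the transgelins and calponins was 0.823%, 2.75% and 4.24%.

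The calponins bind actin and dampen myosin activity, and *Cnn1* is the isoform of differentiated smooth muscle. *Cnn1* (chromosome 9, 22099216 to 22109630, plus strand) was near 0 throughout, with an FPKM of 0.15 in CTRL, 0.0770 under GDF15 and 0.0628 under TGF-β. These are an estimated 6.10, 3.66 and 2.44 fragments, with counting intervals that all overlap (2.20 to 13.1 in CTRL and 0.242 to 7.22 in TGF-β). A change of *Cnn1* was thus not detectable at this depth, and its ratio of TGF-β to CTRL was 0.420 with an interval from 0.0345 to 1.95. *Cnn2* (chromosome 10, 79988584 to 79996062, plus strand), an isoform of non-muscle cells as well, was abundant and level, at 67.6, 72.5 and 69.4. Its ratio to CTRL was 1.07 by GDF15 (1.02 to 1.13) and 1.03 by TGF-β (0.974 to 1.08), and its changes of 0.10 and 0.04 were under 1 local spread. *Cnn3*, the acidic calponin, was at 71.5, 79.8 and 69.3, with changes of 0.16 and -0.05.

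Tropomyosins lie along actin filaments and set which proteins can bind them. *Tpm1* (chromosome 9, 67022590 to 67049406, minus strand) had an FPKM of 77.1 in CTRL, 80.6 under GDF15 and 78.6 under TGF-β, and its ratios to CTRL were 1.04 (counting interval 1.0 to 1.09) and 1.02 (0.974 to 1.07). *Tpm2* (chromosome 4, 43514711 to 43523765, minus strand), which encodes β-tropomyosin, was at 90.2, 67.8 and 61.0. *Tpm2* is the abundant contractile gene whose values ran against *Acta2*, highest in CTRL and lowest in TGF-β. Its ratios to CTRL were 0.751 (0.714 to 0.789) by GDF15 and 0.676 (0.640 to 0.714) by TGF-β, beyond counting error, but the changes of -0.41 and -0.56 were not called and were 1.47 and 2.23 local spreads below their neighbours. Over all genes, 562 had a larger fall by GDF15 and 345 by TGF-β. Over the alternative settings the changes of *Tpm2* ran from -0.41 to -0.28 by GDF15 and from -0.56 to -0.43 by TGF-β.

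*Tpm3* was at 86.7 in CTRL, 86.8 under GDF15 and 93.9 under TGF-β, and *Tpm4* at 88.7, 105 and 99.2. The summed FPKM of the 4 tropomyosin genes was 343, 340.1 and 333, and the share of *Tpm2* in it was 26.3%, 19.9% and 18.3%. Of the 50-base words of the *Tpm3* transcript, 62.4% are also found in *Tpm3-rs7*, a near-identical copy, so the value of *Tpm3* is uncertain. *Tpm1* and *Tpm2* had 0 such words. Both genes make muscle and non-muscle transcripts (GENCODE lists 16 coding transcripts for *Tpm1* and 4 for *Tpm2*), and 1 value per gene cannot show a switch between them.

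*Tnnt2* encodes the cardiac form of troponin T, the subunit that holds the troponin complex on tropomyosin, and lies on chromosome 1 (135836354 to 135852260, plus strand). Its FPKM was 0.531 in CTRL, 1.78 under GDF15 and 4.71 under TGF-β, an estimated 9.92 (4.80 to 18.4), 38.8 (27.7 to 53.3) and 83.9 (67.0 to 104) fragments. The counting intervals of the 3 libraries do not overlap. The ratio to CTRL was 3.35 by GDF15 (1.64 to 7.51) and 8.87 by TGF-β (4.56 to 19.0). On the log2(FPKM + 1) scale the changes were 0.86 and 1.90, or 4.25 and 7.85 local spreads, so that *Tnnt2* passed the criterion by TGF-β and lay under it by GDF15. With GDF15 it passed in 4 of the 6 alternative settings that can change a single gene. Among them were those with a lower or no pseudocount, which can only enlarge a change. None of the other 7 troponin genes was called. *Tnni2* (a fast skeletal troponin I) was at 5.99, 4.25 and 3.62 and *Tnnc1* (the slow and cardiac troponin C) at 4.6, 3.03 and 4.26. *Tnnc2* (the fast skeletal troponin C), chosen after its values were seen, was at 0.109, 0.75 and 0.115, highest under GDF15.

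*Myh11*, the smooth muscle myosin heavy chain, lies on chromosome 16 (14194535 to 14291372, minus strand). Its FPKM was 0.270 in CTRL, 0.356 under GDF15 and 0.403 under TGF-β, an estimated 32.0 (21.9 to 45.2), 49.2 (36.3 to 64.8) and 45.6 (33.7 to 61.4) fragments. These intervals overlap, and the ratios to CTRL of 1.32 (0.824 to 2.12) and 1.49 (0.939 to 2.45) both include no difference. *Myh9*, the main non-muscle myosin heavy chain, was at 185, 220.0 and 228, and *Myh10*, another non-muscle isoform, at 17.5, 20.2 and 16.7. *Myh11* thus held between 0.133% and 0.164% of the summed FPKM of the conventional myosin heavy chains. Of its 6500 50-base words, 26 (0.4%) are also found in *Myh9* or *Myh10*. With up to 2 mismatches allowed, 125 (1.92%) could be matched in its family. *Myh9* was far more abundant, so the low value of *Myh11* is uncertain, and the part of shared reads in it was not tested.

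*Lmod1*, the smooth muscle leiomodin that nucleates actin filaments, lies on chromosome 1 (135324807 to 135368065, plus strand). Its FPKM was 0.0428 in CTRL, 0.0245 under GDF15 and 0.0749 under TGF-β. With its 1 coding transcript these values come out at 3, 2 and 5 fragments, at or near the floor of 3 fragments, and no difference was detectable. Its relatives *Tmod3* (a tropomodulin, which caps filament ends) and *Tmod4* were at 18.5, 23.9 and 24.3 and at 1.49, 0.751 and 0.756.

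The order of the levels changed between the libraries. In CTRL it was *Tpm2*, *Tpm1*, *Cnn2*, *Acta2*, *Tagln*, *Tnnt2*, *Myh11*, *Cnn1*, *Actg2* and *Lmod1*, from highest to lowest, and the neighbours from *Tnnt2* downward did not differ beyond their counting intervals. In GDF15 *Acta2* moved up to the second place after *Tpm1*, but its counting interval overlapped that of *Cnn2*, which in turn overlapped that of *Tpm2*, while those of *Acta2* (71.0 to 76.3) and *Tpm2* (65.3 to 70.3) were apart. Below *Tnnt2* each of *Myh11*, *Actg2*, *Cnn1* and *Lmod1* overlapped its neighbour in that order, but *Myh11* was apart from *Cnn1*. In TGF-β *Acta2* led at 96.1, apart from *Tpm1* at 78.6, and in this library the overlap was that of *Lmod1* and *Cnn1* at the bottom. *Acta2* was higher than 80.0% of the genes of the table in CTRL, 95.9% under GDF15 and 97.0% under TGF-β. For *Tagln* these shares were 44.6%, 61.0% and 73.1%. *Tpm1*, *Tpm2* and *Cnn2* were above between 94.5% and 96.6% of the genes in each library. The 10 genes together took 0.0781% of all FPKM in CTRL, 0.0996% under GDF15 and 0.105% under TGF-β.

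**Figure D3:**
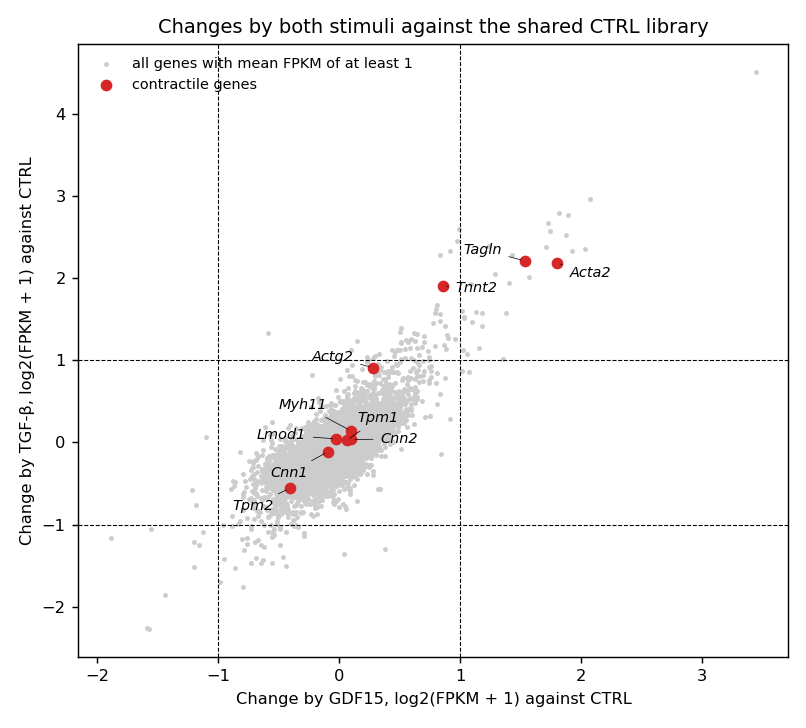
Change by GDF15 (x axis) against change by TGF-β (y axis), both as log2(FPKM + 1) against the shared CTRL library, for genes whose mean FPKM reached 1 (grey) and all 10 contractile genes (red); dashed lines mark the 2-fold criterion. *Acta2* (1.80 and 2.18) and *Tagln* (1.53 and 2.21) lie past it by both stimuli, *Tnnt2* (0.86 and 1.90) by TGF-β, and the other 7 lie inside it.

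Both stimulated libraries were also compared with each other. TGF-β was above GDF15 past the criterion for 1 of the 10 genes, *Tnnt2*, where 0.0836% of all genes were called higher in TGF-β, and below GDF15 for 0 of them, where 0.0193% were called lower. The direct change of *Tnnt2* was 1.04, or 6.07 local spreads, and its ratio was 2.65 (counting interval 1.78 to 3.96). It was 0.97, under the criterion, once a dependence on transcript length and GC content was taken out. *Tagln* differed by 0.68 (ratio 1.67, 1.41 to 1.97) and *Acta2* by 0.38 (ratio 1.31, 1.24 to 1.37), or 5.06 and 2.56 local spreads. *Actg2* differed by 0.63 (ratio 3.21, 1.37 to 8.38). For these 4 genes the level was highest in TGF-β. *Tpm2* was lower in TGF-β than in GDF15 by a ratio of 0.900 (0.851 to 0.952), and the intervals of the ratios of the other 5 genes included no difference. The doses differ between the stimuli (100 ng/mL and 4 ng/mL), so the libraries were compared as they were made and not at matched doses.

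Promoter sequence of the contractile genes was searched for motifs known from muscle genes, as a description. The RefSeq promoter table (GRCm38.p6, 250 bases before to 50 after each start) held 7 of the 10 genes in 8 windows, and *Actg2*, *Tagln* and *Myh11* had no entry. The CArG box was searched as CC, then A or T at 6 positions, then GG, which reads as the same class on both strands. A CArG-like match allowed 1 other base among the 6, and so includes every CArG box. The MCAT element, bound by TEAD factors, was searched as CATTCC on both strands. The matches of *Acta2*, *Cnn2* and *Tnnt2* are shown with the motif in capitals in 30 bases of the gene's strand, and the MCAT matches of *Lmod1* and *Tpm1* are not shown.
Acta2, CArG-like, chr19:34255438-34255467, minus strand: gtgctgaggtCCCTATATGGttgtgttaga
Acta2, CArG-like, chr19:34255388-34255417, minus strand: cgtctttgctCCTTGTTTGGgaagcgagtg
Acta2, MCAT on the reverse strand, chr19:34255502-34255531, minus strand: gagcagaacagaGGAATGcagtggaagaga
Cnn2, CArG box, chr10:79988534-79988563, plus strand: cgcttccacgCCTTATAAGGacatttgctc
Tnnt2, MCAT, chr1:135836295-135836324, plus strand: tctcctgctgcaCATTCCtccctccgcggg
The *Acta2* window held 2 CArG-like matches, at -84 to -75 and -34 to -25 from the RefSeq start, and 0 full CArG boxes. Of all 32851 promoter windows, 9.98% held a CArG-like match and 1.63% a full CArG box. The GENCODE start of *Acta2* lies 217 bases upstream of the RefSeq start, and the *Acta2* matches shown lie between both starts. The full CArG box was in the window of *Cnn2* at -56 to -47. MCAT elements were in the windows of *Acta2*, *Tnnt2*, *Lmod1* and *Tpm1*, against 14.7% of all windows. A match is a description of these letters and shows no binding, its part in the changes was not tested, and the windows of *Cnn1* and *Tpm2* and a further window of *Tnnt2* held none of these motifs.

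**Figure D4:**
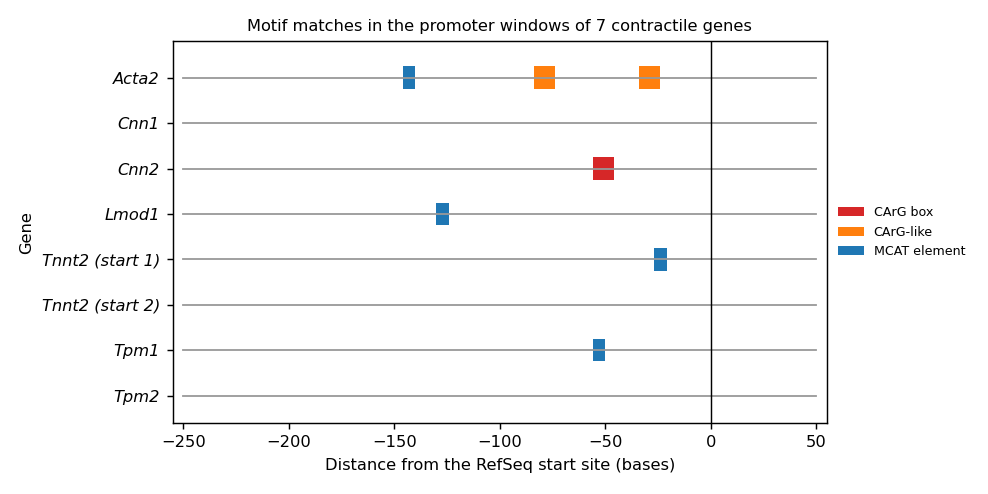
Matches to the CArG box, the CArG-like motif and the MCAT element in the 8 promoter windows of 7 contractile genes, by distance in bases from the RefSeq start site (vertical line at 0). *Acta2* holds 2 CArG-like matches and 1 MCAT element, *Cnn2* the CArG box, and *Tnnt2*, *Lmod1* and *Tpm1* an MCAT element each.

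Other genes of the contractile and adhesive machinery were followed as lists, over genes whose mean FPKM reached 1. Among these 9226 genes, GDF15 called 0.347% higher and 0.130% lower, TGF-β called 0.932% higher and 0.553% lower, and the median change was -0.03 and -0.07. Of 29 other genes of the smooth muscle apparatus 28 were in the table and 17 passed the minimum. GDF15 called 0 of the 17 and TGF-β called 1, *Fhl1*, a LIM-domain protein of muscle (FPKM 0.831 in CTRL, 2.55 under GDF15 and 3.38 under TGF-β; changes 0.95 and 1.26). *Fhl1* was under the minimum in CTRL and passed it only through the stimulated libraries, so its call in this list is a description. *Crip1*, a small LIM-domain protein under the minimum, was at 0.22, 0.753 and 1.61, with a change of 1.10 by TGF-β. The medians of the 17 were 0.06 and 0.05. The most abundant of them were *Myl6* (the essential myosin light chain) at 452, 435 and 555 and *Csrp1* (a LIM protein of smooth muscle) at 68.6, 66.3 and 70.9, neither of them called. Chosen after their values were seen, *Fhl2*, a partner of serum response factor, was at 32.0, 56.8 and 58.1, and *Myl9*, the regulatory light chain of smooth muscle myosin, at 1.76, 3.31 and 3.25. *Casq2* (calsequestrin), *Mylk* (myosin light chain kinase) and *Tgfb1i1* (Hic-5), chosen likewise, had values in the opposite direction, at 1.18, 0.487 and 0.323, at 0.737, 0.469 and 0.463, and at 28.3, 24.6 and 21.7. *Casq2* and *Mylk* were under the minimum. *Ppp1r14a*, *Pln*, *Kcnmb1* and *Pdlim3*, genes of differentiated muscle, were listed at 0 in all 3 libraries.

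Of the 27 stress fibre and focal adhesion genes, 23 passed the minimum and 0 were called by either stimulus. The value was below CTRL for 10 of the 23 by GDF15 and for 13 by TGF-β. Their median changes were 0.05 by GDF15 and -0.05 by TGF-β. *Pfn1* (profilin) and *Cfl1* (cofilin), the most abundant, were at 602, 541 and 556 and at 504, 456 and 487. *Actn1* (α-actinin), chosen after its values were seen, was at 76.7, 107 and 114, with changes of 0.48 and 0.57, and *Vasp* (an actin-elongating protein), chosen likewise, at 26.8, 21.3 and 22.7, with changes of -0.32 and -0.23.

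Of the 24 transcription factors, cofactors and signalling genes upstream of the program, 18 passed the minimum and 0 were called, with medians of 0.05 by GDF15 (range -0.52 to 0.42) and 0.11 by TGF-β (-0.75 to 0.57). The lower end in both was *Csrp2*, a LIM protein of smooth muscle and chosen after its values were seen, at 129, 89.4 and 76.5. *Rhoa* and *Rhoc*, the most abundant, were at 179, 194 and 211 and at 118, 102 and 128. Chosen for their role after their values were seen, *Srf* (serum response factor) was at 9.65, 8.69 and 7.40, and its cofactors *Mkl1* and *Mkl2* at 13.3, 12.6 and 10.9 and at 7.94, 9.11 and 8.6. *Myocd* (myocardin, the cofactor of differentiated smooth muscle), *Gata6* and *Hey2*, other regulators, were listed at 0 in all 3 libraries. mRNA levels say nothing of where these cofactors were in the cell.

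**Figure D5:**
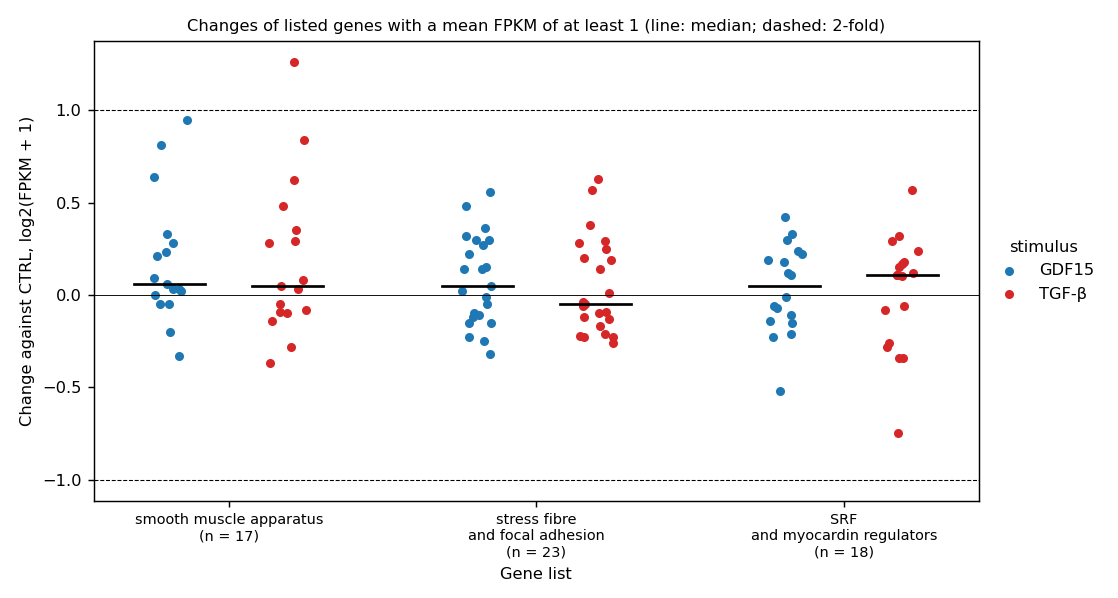
Change against CTRL on the log2(FPKM + 1) scale by GDF15 (blue) and TGF-β (red) of the listed genes whose mean FPKM reached 1, as points with the median as a line; dashed lines mark the 2-fold criterion. In the lists of 17, 23 and 18 genes, *Fhl1* by TGF-β (1.26) is the point past the criterion.

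Of 18 cardiac and skeletal muscle markers 9 were listed at 0 in all libraries, among them *Myod1*, *Myog* and *Actn2*, and the summed FPKM of the 18 was 5.17 in CTRL, 4.61 under GDF15 and 4.09 under TGF-β, most of it from *Nkx2-5* (3.8, 3.3 and 2.76) and *Nppa* (0.769, 0.806 and 0.985). Of 8 pericyte markers, *Cspg4* (60.8, 74.1 and 87.7) and *Pdgfrb* (47.2, 48.5 and 41.8), which fibroblasts also express, carried nearly all of the sum of 109, 123 and 129.9. *Rgs5* was at 0.171 or less and *Kcnj8* was listed at 0. *Cspg4* had the same order of libraries as *Acta2*, and its part in the results was not tested.

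The 5 genes outside the list whose pair of changes was nearest to that of *Acta2*, by Euclidean distance over both comparisons and so over 3 libraries only, on the log2(FPKM + 1) scale, were *Aspn* (distance 0.19), *Col8a1* (0.21), *Itga11* (0.28), *Mfap4* (0.29) and *Lox* (0.35). *Aspn* (asporin, a matrix proteoglycan) had an FPKM of 1.29 in CTRL, 7.70 under GDF15 and 10.5 under TGF-β. *Itga11*, the α11 subunit of a collagen-binding integrin, was at 1.08, 5.20 and 7.43. *Mfap4*, a microfibril-associated glycoprotein, was at 0.0816, 3.43 and 4.53, a far larger ratio than that of *Acta2*, so that its nearness depends on the pseudocount. To a lesser degree this holds for *Aspn* and *Itga11*, whose ratios to CTRL were also larger than those of *Acta2*. *Col8a1* (a short-chain collagen) was at 9.6, 33.8 and 54.0 and *Lox* (a collagen crosslinking enzyme) at 78.0, 289 and 452. The 5 genes were picked by these values among genes whose mean FPKM reached 1, which *Mfap4* passed only through the stimulated libraries. They encode matrix proteins, a matrix enzyme and a matrix receptor. This describes genes picked by value, and a share of matrix genes was not tested.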

How the data were processed

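RNA-seq of 3 NIH3T3 libraries (CTRL, GDF15 and TGF-β, each from RNA pooled within the treatment) was used as deposited. Per the labels, the authors used TopHat 1.3.2, Bowtie 0.12.9 and Cufflinks 2.0.2 with mm10. The values are FPKM as the authors computed them, 1 column per library, and each column was matched to a sample by the treatment in its header. The headers write the line as NIH3T3, NIH3T4 and NIH3T5 for CTRL, GDF15 and TGF-β, where the labels give NIH3T3 for all, and the labels were followed. Annotation is from GENCODE M21 (GRCm38, the same assembly), in which 15473 of 15554 rows were matched by symbol or older symbol. The annotation behind the deposited values is not given in the sources used here.

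Changes are differences of log2(FPKM + 1), called over 1 in size. Depth was estimated from genes with 1 coding transcript over 1000 bases. Their FPKM multiplied by the transcript length less 199 bases (a fragment of 200 bases assumed) clusters at whole fragments, and of the values up to 5 fragments between 70.8% and 73.1% lay within 0.1 of a whole number. Intervals are exact Poisson for fragments and exact binomial for ratios. The 2-fold call and the local spread were tried on simulated libraries in which well expressed genes were raised by a known fold. The depth estimate, the intervals and rises of genes of low FPKM were not tested in this way. The genes named are the 10 members, all of the actin, transgelin and calponin, and tropomyosin families, the called and the 2 most abundant genes of each list, and the 5 nearest to *Acta2*. Other genes, those listed at 0 and *Rgs5* among them, were chosen after their values were seen. The members and lists were chosen with earlier results of these data known. *Cald1*, *Tns1*, *Myl12a*, *Lmod3* and *Myh2* of the lists were not analysed here. Alternatives were pseudocounts of 0.5 and 0.1, no pseudocount, a minimum mean FPKM of 1, scaling to the same upper quartile, and correction for a running median over expression or for transcript length with GC content. Scripts ran in Python 3.11.15 with scipy 1.17.1, pandas 2.3.3, matplotlib 3.10.9 and numpy 2.4.6.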

Additional observations from a re-analysis of the deposited data

How the results depend on the processing

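No paired analysis was possible because only 1 library was made per treatment, and leaving out a library would leave a treatment empty. The minimum on FPKM cannot change a single gene's value. Under the other 6 alternatives single genes had 180 values, of which 143 moved by less than the local spread, 37 by more, and 0 called values reversed. *Acta2* and *Tagln* passed 2-fold by both stimuli, and *Tnnt2* by TGF-β, under all 6. A lower pseudocount, or none, can only enlarge a change and cannot turn its sign. Passing in those settings was therefore fixed in advance and is no sign of robustness. The counts depended mainly on the pseudocount, which holds back genes of low FPKM. By GDF15, 3 genes were higher past 2-fold with a pseudocount of 0.5 or with transcript length and GC content corrected for (*Tnnt2* added). The background called higher was 0.289% of 15554 genes and 0.233% of 15473 genes. With a pseudocount of 0.1 the count was 4, and without one 4, because *Actg2* and *Tnnt2* joined. There the background called higher was 0.894% of 15554 genes and 2.27% of the 11081 genes above 0 in every library. By TGF-β, 4 genes in place of 3 were higher under 4 alternatives, with *Actg2* added and a background between 0.666% and 3.76%, and 1 gene (*Cnn1*) was lower without a pseudocount, where 3.36% of the 11081 genes were. Between TGF-β and GDF15, 2 genes were higher with a pseudocount of 0.1, 3 without one and 0 when transcript length and GC content were corrected for, against backgrounds of 0.804%, 2.79% and 0.0905%. The median of the 10 genes by GDF15 was 0.20 with a pseudocount of 0.1 and 0.25 without one, that by TGF-β was 0.37 and 0.69, and that between TGF-β and GDF15 was 0.26 and 0.28. The minimum mean FPKM removes *Actg2*, *Cnn1*, *Myh11* and *Lmod1* and left medians of 0.48 by GDF15 and 0.97 by TGF-β over the other 6. *Tnnt2*, at 0.531 in CTRL, passes that minimum only through the stimulated libraries, so these medians support nothing, and without it the middle gene is *Cnn2* (0.10 and 0.04). Depth limits *Actg2*, *Cnn1* and *Lmod1*, at or under 8.14 fragments in CTRL and GDF15.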
